A study of Arabidopsis thaliana with 12 samples.

Results

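The genes described are 7 regulators of anthocyanin synthesis in Arabidopsis thaliana, out of 21428 loci measured: PAP1, PAP2, MYB113, TT8, EGL3, TTG1 and MYBL2. They were taken from the table by their probe sets, AT1G56650_at for PAP1, AT1G66390_at for PAP2, AT1G66370_at for MYB113, AT4G09820_at for TT8, AT1G63650_at for EGL3, AT5G24520_at for TTG1 and AT1G71030_at for MYBL2, and all 7 were present. They were chosen with their responses in these same arrays known, so their values are given as a description and carry no test. PAP1, PAP2, MYB113, EGL3 and MYBL2 lie on chromosome 1, TT8 on chromosome 4 and TTG1 on chromosome 5.

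Anthocyanins are the red and purple pigments of leaves, made in the cytoplasm and stored in the vacuole. Their late biosynthetic genes are switched on by a complex of an R2R3-type MYB protein, a basic helix-loop-helix (bHLH) protein and the WD40 protein TTG1, the MBW complex. MYBL2 is a small MYB protein that binds the bHLH partner and represses the same genes. DELLA proteins are repressors of gibberellin responses, and they are known to bind MYBL2 protein.

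The seedlings carried 35S::gai-GR in the Col-0 ecotype. In this transgene the constitutive 35S promoter drives gai, a form of the DELLA protein GAI that gibberellin does not remove, fused to the hormone-binding domain of the glucocorticoid receptor, so that dexamethasone (DEX) lets the protein enter the nucleus. At an age of 9 days the seedlings were moved to medium with 5 µM DEX or to DMSO (mock), and leaf 3, a young leaf with dividing cells, was taken after 1 h or 4 h. The 4 groups were DEX 1 h, mock 1 h, DEX 4 h and mock 4 h, with 3 ATH1 arrays each and 12 in all. All groups carried the transgene, and no DEX-treated plants without it were analysed here, so effects of gai-GR and of DEX itself cannot be told apart. Per the series description the replicates came from independent experiments. It states that 128 plants were dissected, without saying whether per sample or in all. Because the leaf was measured whole, fewer cells of a type and less RNA per cell cannot be told apart.

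The values are log2 expression levels per probe set. The medians of the arrays ran from 7.48 to 7.78. The array of mock 4 h replicate 2 was the lowest at 7.48 and the others were at 7.65 or above. Differences of members and named genes that move by over 1.5 times without it are given without it as well. The ratios to MYBL2 below were not recomputed without it. GAI itself (AT1G14920) lay at 12.81 to 12.97 on the 12 arrays, and whether its probes also read the transgene was not tested. Of the leaf photosynthesis markers 3 of 6 were measured, and their means over the arrays were 9.61 to 13.33. Of the epidermis markers 4 of 4 were measured, with means of 11.22 to 12.99. The 6 root markers had means of 5.91 to 7.94 and the 6 shoot meristem markers of 5.36 to 7.04.

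PAP1, a MYB activator whose overexpression turns plants purple, was the member that differed most at both times. After 1 h its log2 level was 9.27, 9.06 and 10.07 on the DEX arrays, against 8.26, 8.10 and 7.92 on the mock arrays. All 3 DEX arrays lay above all 3 mock arrays, and DEX replicate 3 was well above the other DEX arrays. The means were 9.47 ± 0.54 in DEX and 8.09 ± 0.17 in mock (SD, n = 3 each), a log2 difference of 1.37 (SE 0.25) or 2.59-fold. After 4 h PAP1 was at 10.97, 11.26 and 11.16 in DEX, against 7.40, 6.65 and 7.67 in mock. The DEX arrays lay close together, the groups were far apart, and mock replicate 2 was the lowest of all. The means were 11.13 ± 0.15 in DEX and 7.24 ± 0.53 in mock (SD, n = 3 each), which gave a log2 difference of 3.89 (SE 0.25) or 14.8-fold. Of the loci on the array 24 had a larger difference in size than PAP1 at 1 h, and 4 had a larger one at 4 h. Without DEX 1 h replicate 3 the 1 h difference was 1.07, and without mock 4 h replicate 2 the 4 h difference was 3.59.

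**Figure D1:**
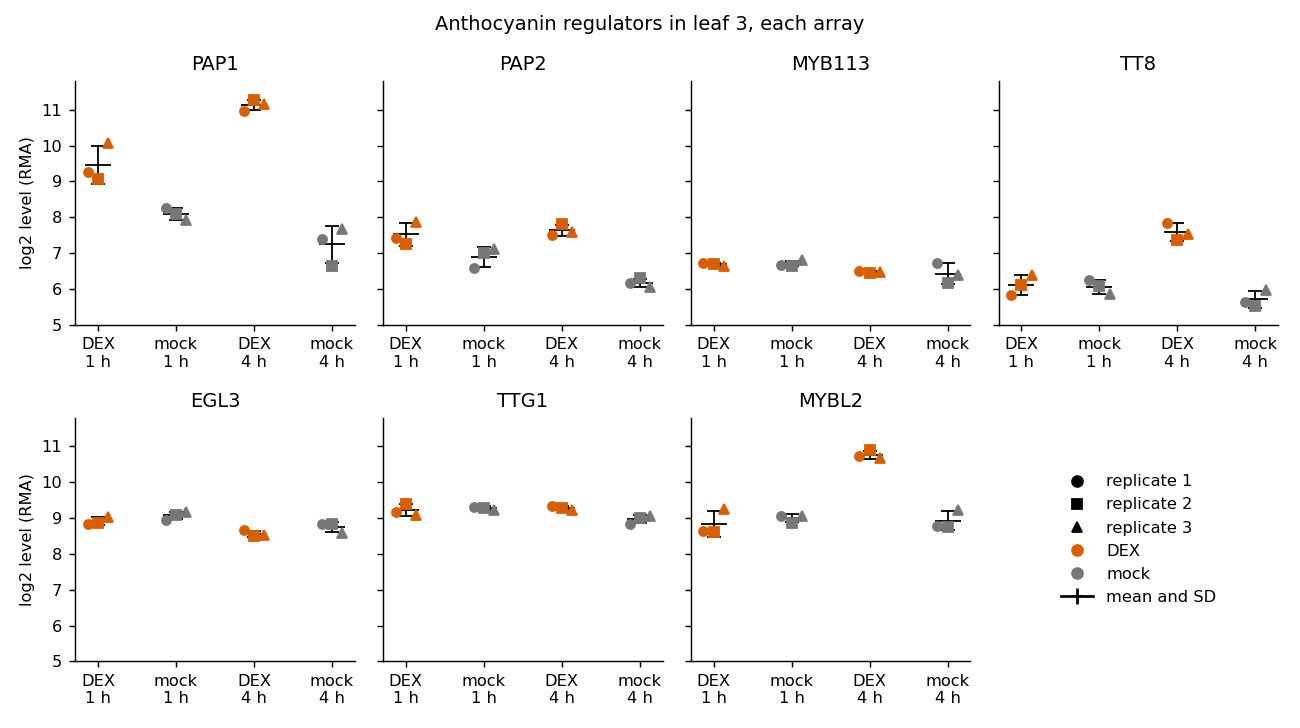
Log2 expression level (vertical axis) of the 7 regulators in DEX 1 h, mock 1 h, DEX 4 h and mock 4 h leaves, with 1 point per array and black bars for the mean and SD of 3 arrays. PAP1 and PAP2 are separated at both times, PAP2 narrowly at 1 h. TT8, MYBL2 and, narrowly, TTG1 are separated at 4 h, and MYB113 and EGL3 stay close together in all groups.

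PAP2, also called MYB90, is a close relative of PAP1 with the same kind of activity. Its log2 level after 1 h was 7.42, 7.26 and 7.88 in DEX, against 6.58, 7.01 and 7.10 in mock. The groups did not overlap, although the lowest DEX array and the highest mock array were close. After 4 h it was at 7.50, 7.81 and 7.59 in DEX, against 6.16, 6.29 and 6.05 in mock, again with no overlap and with little spread inside either group. The log2 difference was 0.62 (SE 0.16), 1.54-fold, at 1 h, and 1.46 (SE 0.16), 2.75-fold, at 4 h. Without DEX 1 h replicate 3 the 1 h difference was 0.44.

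MYB113 belongs to the same group of MYB activators and lies in a tandem cluster with MYB114 and PAP2 on chromosome 1. Its log2 level after 1 h was 6.72, 6.69 and 6.64 in DEX, against 6.68, 6.65 and 6.80 in mock. After 4 h it was 6.49, 6.44 and 6.47 in DEX, against 6.73, 6.16 and 6.38 in mock. The groups overlapped at both times, and the log2 differences were -0.03 (SE 0.12) at 1 h and 0.04 (SE 0.12) at 4 h. The 4 h difference was -0.09 without mock 4 h replicate 2. MYB114 (AT1G66380), the neighbour between MYB113 and PAP2, read 5.04 to 5.40 and stayed under the lower quartile of its array on 12 of 12 arrays. The 4 genes are close paralogs, and cross-hybridisation between their probes was not tested.

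TT8 is a bHLH protein of the complex, named for the pale seeds of its mutant. Its log2 level after 1 h was 5.84, 6.12 and 6.40 in DEX, against 6.24, 6.08 and 5.86 in mock, and these groups overlapped throughout. After 4 h it was 7.85, 7.36 and 7.52 in DEX, against 5.63, 5.52 and 5.97 in mock, with every DEX array well above every mock array. The log2 difference was 0.06 (SE 0.17) at 1 h and 1.87 (SE 0.17), 3.64-fold, at 4 h. The 1 h difference ran from -0.08 to 0.20 when single arrays were left out, so it had no settled sign. TT8 was under the lower quartile of its array on 4 of the 12 arrays, 2 of them from mock 4 h, so its 4 h difference may be a lower bound, because signals near background compress differences.

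EGL3 is the other bHLH protein of the list and also acts in trichome formation. Its log2 level after 1 h was 8.83, 8.86 and 9.04 in DEX, against 8.96, 9.09 and 9.17 in mock, and after 4 h it was 8.66, 8.50 and 8.54 in DEX, against 8.83, 8.84 and 8.58 in mock. The groups overlapped at both times, with most DEX arrays low. The log2 difference was -0.16 (SE 0.10) at 1 h and -0.18 (SE 0.10) at 4 h. Of the 2 bHLH partners, TT8 therefore had a large positive 4 h difference and EGL3 a small negative one.

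TTG1 is the WD40 scaffold that holds MYB and bHLH proteins together. After 1 h its log2 level was 9.16, 9.40 and 9.09 in DEX, against 9.32, 9.29 and 9.23 in mock, and these groups overlapped. After 4 h it was 9.34, 9.28 and 9.22 in DEX, against 8.84, 9.01 and 9.05 in mock. Here the groups did not overlap, but the lowest DEX array and the highest mock array were near each other. The log2 difference was -0.06 (SE 0.10) at 1 h and 0.31 (SE 0.10) at 4 h, and the 4 h value was 0.20 when each array was centred on its median.

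MYBL2, the repressor, differed between DEX and mock at 4 h in the same direction as PAP1, PAP2 and TT8. Its log2 level after 1 h was 8.63, 8.61 and 9.24 in DEX, against 9.06, 8.86 and 9.06 in mock. The first 2 DEX replicates lay below all mock arrays and DEX replicate 3 above them. After 4 h it was 10.72, 10.90 and 10.67 in DEX, against 8.79, 8.76 and 9.23 in mock, with a wide gap between the groups. The log2 difference was -0.17 (SE 0.16) at 1 h and 1.84 (SE 0.16), 3.58-fold, at 4 h. The 1 h difference was -0.37 without DEX 1 h replicate 3 and -0.06 without DEX 1 h replicate 2, so its size depended on these arrays.

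**Figure D2:**
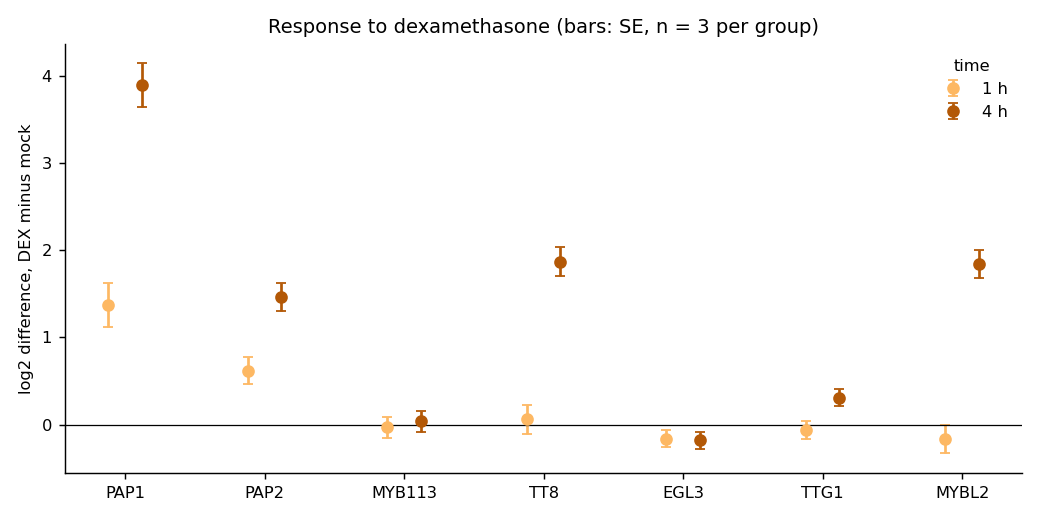
Log2 difference of DEX minus mock for each regulator at 1 h and at 4 h, with bars of 1 SE from the fit over 12 arrays. The largest differences are those of PAP1 (1.37) and PAP2 (0.62) at 1 h, and of PAP1 (3.89), TT8 (1.87), MYBL2 (1.84) and PAP2 (1.46) at 4 h. TTG1 at 4 h has a smaller one of 0.31 (SE 0.10).

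Set against the whole array, 1 of the 7 regulators, PAP1, was called higher at 1 h at an adjusted p under 0.05 in limma, where 0.63% of all loci were called higher and 0.084% lower. No regulator was called lower (0 of 7). At 4 h 4 of 7 were called higher, PAP1, PAP2, TT8 and MYBL2, where 5.35% of all loci were called higher and 2.55% lower, and again 0 of 7 were called lower. The median log2 difference of the 7 was -0.03 at 1 h and 1.46 at 4 h, beside 0.00 and 0.02 over all loci. The regulators were chosen on these differences, so nothing is read from these counts. The 1 h call of PAP1 was lost without DEX 1 h replicate 3 and without any 1 of the 3 mock 1 h arrays. The 4 h calls numbered 4 in each alternative tried.

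The split of all 4 h calls depended on scaling. Of the loci called at 4 h 67.7% were higher in DEX, but 40.0% after each array was centred on its median, 49.6% after quantile normalization was applied again and 49.9% without mock 4 h replicate 2. Centring moved the median 4 h difference of all loci to -0.09. The 4 h differences of PAP1, PAP2, TT8 and MYBL2 stayed positive under all of these.

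The 4 h DEX-minus-mock difference exceeded the 1 h one by 2.51 (SE 0.36) for PAP1, by 2.01 (SE 0.23) for MYBL2 and by 1.80 (SE 0.24) for TT8, on the log2 scale. For PAP2 the excess was 0.84 (SE 0.23). By the fit's threshold PAP1, MYBL2 and TT8 were called, 3 of 7, and 4 of 7 without DEX 1 h replicate 3, where the excess of PAP2 was 1.02. Over all loci 1.28% were called in either direction, and since the order in time was part of the choice of these genes, nothing is read from the counts. PAP1 and PAP2 were already apart at 1 h, PAP2 narrowly and without a call, whereas TT8 and MYBL2 overlapped between the groups then. The share of all loci apart at 1 h was not counted, so nothing is read from this separation.

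The excess of the 4 h over the 1 h difference is the change between the times in DEX leaves less that in mock leaves, and the regulators differed in which was larger. TT8 was at 7.57 ± 0.25 in DEX 4 h leaves against 6.12 ± 0.28 in DEX 1 h leaves, a log2 difference of 1.45 (SE 0.17), while mock 4 h leaves differed from mock 1 h leaves by -0.35 (SE 0.17). MYBL2 was higher by 1.94 (SE 0.16) in DEX 4 h than in DEX 1 h leaves, and its mock groups differed by -0.07 (SE 0.16). Without mock 4 h replicate 2 this mock difference was 0.02. For MYBL2 nearly the whole excess thus lay in the DEX leaves.

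For PAP1 both parts counted, with 1.66 (SE 0.25) for DEX 4 h minus DEX 1 h and -0.85 (SE 0.25) for mock 4 h minus mock 1 h. Without mock 4 h replicate 2 the mock part was -0.56. PAP2 had the opposite make-up to MYBL2. Its DEX groups differed by 0.11 (SE 0.16), with means of 7.63 ± 0.16 at 4 h and 7.52 ± 0.33 at 1 h, and its mock groups by -0.73 (SE 0.16), with means of 6.17 ± 0.12 at 4 h and 6.90 ± 0.28 at 1 h. The larger PAP2 difference at 4 h therefore came mostly from lower levels in mock leaves.

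EGL3, MYB113 and TTG1 were a little lower in mock leaves at 4 h than at 1 h, by log2 differences of -0.32 (SE 0.10), -0.29 and -0.31 (SE 0.10). Without mock 4 h replicate 2 the mock difference of MYB113 was -0.16. EGL3 and MYB113 were also lower in DEX leaves at 4 h, by -0.34 (SE 0.10) and -0.22, whereas TTG1 differed by 0.06 there. Of the 7 members 1, PAP2, was called lower in mock 4 h than in mock 1 h leaves, where 5.64% of all loci were called lower and 3.64% higher. The count changed with the setting, from 0 of 7 without mock 1 h replicate 2 or replicate 3 to 3 of 7 without DEX 1 h replicate 2 or with array weights, and was 2 of 7 without mock 4 h replicate 2. Without that array 60% of all calls in this comparison were higher, against 39.2% with it, so the counts are given as a description.

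**Figure D3:**
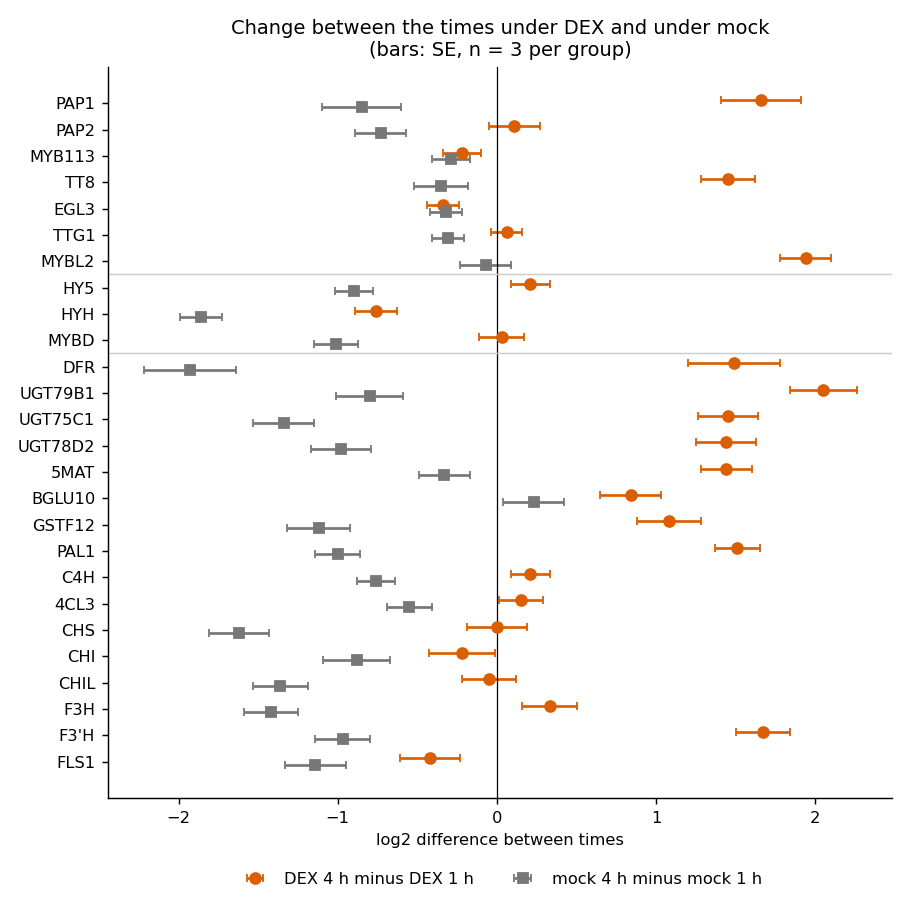
Log2 difference of 4 h minus 1 h leaves (horizontal axis) in DEX leaves and in mock leaves, with bars of 1 SE, for the 7 regulators, 3 light signalling genes and the 16 pathway enzymes described further on. MYBL2 and TT8 differ mainly in the DEX leaves (1.94 and 1.45), PAP2 mainly in the mock leaves (-0.73), and PAP1 in both (1.66 and -0.85).

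The activators were also set against the repressor within each array, as the log2 ratio of the activator's signal to that of MYBL2. Only changes of this ratio are compared, because levels of different probe sets are not on a common scale. For PAP1 the ratio was 0.46 to 0.84 in DEX 1 h leaves and -1.13 to -0.76 in mock 1 h leaves. At 4 h it was 0.25 to 0.49 in DEX and -2.11 to -1.38 in mock. DEX minus mock was 1.54 at 1 h and 2.05 at 4 h, so PAP1 was higher relative to MYBL2 in DEX leaves at both times, with no overlap.

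For PAP2 the ratio to MYBL2 separated the groups at 1 h but not at 4 h. Its ratio was -1.35 to -1.21 in DEX and -2.47 to -1.85 in mock at 1 h, and -3.22 to -3.08 in DEX and -3.18 to -2.46 in mock at 4 h. The difference was 0.79 at 1 h, without overlap, and -0.38 at 4 h, with overlap. For TT8 the DEX-minus-mock difference of the ratio was 0.23 at 1 h and 0.03 at 4 h, and the groups overlapped at both times. Because TT8 was near background on 2 of the mock 4 h arrays, its 4 h value may be a lower bound here as well.

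Array by array at 1 h, DEX replicate 3 stood apart from the other DEX replicates. Relative to the mean of the mock 1 h arrays, PAP1 was higher by 1.17, 0.97 and 1.98 on DEX replicates 1, 2 and 3, and PAP2 by 0.52, 0.36 and 0.99. For MYBL2 the same values were -0.36, -0.38 and 0.25, and for TT8 -0.22, 0.06 and 0.34. Replicate 3 was the highest DEX 1 h array for 5 of the 7 members and for 13 of the 16 measured pathway enzymes, against 31.7% of all loci. Among the 1146 loci called higher at 4 h it was highest for 49%. Why replicate 3 differed was not tested.

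**Figure D4:**
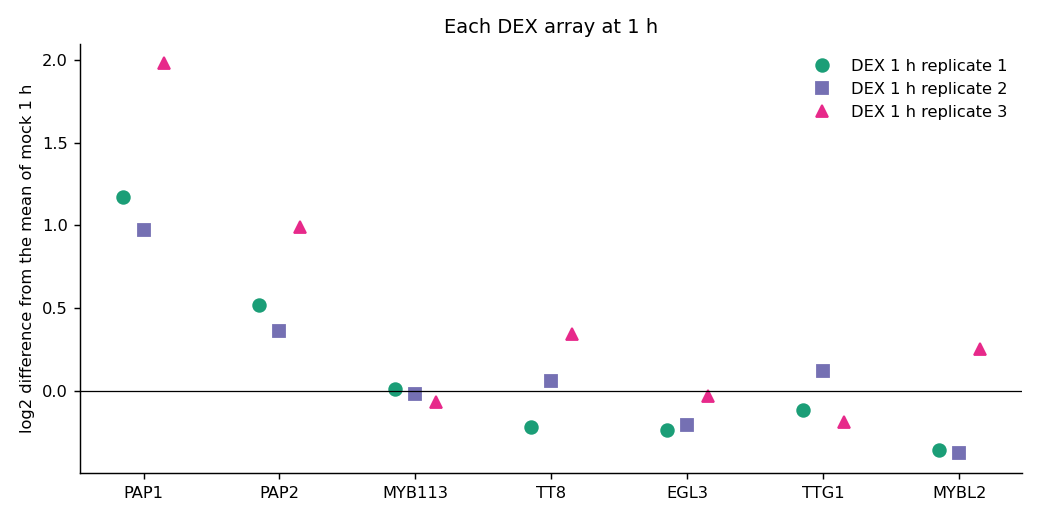
Log2 level on each of the 3 DEX 1 h arrays minus the mean of the mock 1 h arrays, for the 7 regulators. Replicate 3 is the highest array for PAP1 (1.98), PAP2 (0.99), TT8 (0.34) and MYBL2 (0.25).

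At 4 h the DEX arrays were more alike. Relative to the mean of the mock 4 h arrays, PAP1 was higher by 3.73, 4.02 and 3.91, PAP2 by 1.33, 1.64 and 1.42, TT8 by 2.14, 1.65 and 1.81 and MYBL2 by 1.80, 1.98 and 1.74. No DEX 4 h replicate was the highest for all 4 genes.

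Over the 12 arrays the levels of TT8 and MYBL2 had a Pearson correlation of 0.94, PAP1 and TT8 of 0.90, PAP1 and PAP2 of 0.87, PAP1 and MYBL2 of 0.81, PAP2 and MYBL2 of 0.52, and EGL3 and MYBL2 of -0.68. These describe arrays that fall into 4 treatment groups, so they mostly repeat the group differences. Among 737 loci whose group means spanned at least 1 log2 unit, LBO1 (AT3G21420), an oxidoreductase of strigolactone synthesis, was most like PAP1 (r = 0.985), followed by XTH15 (AT4G14130), a cell wall enzyme (0.981), AT2G31730 (0.981) and CAT5 (AT2G34960), an amino acid transporter (0.979). Each of these 4 had positive DEX-minus-mock log2 differences at 1 h (0.81, 1.19, 0.36 and 0.36) as well as at 4 h (1.91, 2.65, 1.38 and 1.11), as PAP1 did.

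Most like TT8 were AT1G80640 (0.976), OZF2 (AT4G29190), a zinc finger protein (0.976), and 2 enzymes that decorate anthocyanins, the malonyltransferase 5MAT (AT3G29590; 0.975) and the glycosyltransferase UGT79B1 (AT5G54060; 0.975). Most like MYBL2 were AT1G62045 (0.971), the autophagy gene ATG8B (AT4G04620; 0.966), the peptide transporter gene PTR3 (AT5G46050; 0.964) and 5MAT (0.957). The 1 h log2 differences of these 7 genes ran from -0.12 for 5MAT to 0.32 for OZF2, with 0.27 for PTR3, 0.21 for AT1G80640, 0.13 for AT1G62045, 0.05 for ATG8B and -0.07 for UGT79B1. This range reaches close to the 0.36 of AT2G31730 and CAT5. Their 4 h differences ran from 1.07 for ATG8B to 2.78 for UGT79B1. 5MAT was on the lists for both TT8 and MYBL2.

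The rest of the pathway was described with 8 gene lists that hold none of the members, of which 64 of 74 genes were measured. The lists were also chosen with results of these data known. Rose and fell mean here called higher and called lower in DEX than in mock leaves of the same time. At 1 h 1 gene of 64 rose and 1 fell, and at 4 h 20 rose and 8 fell, read against 0.63% and 0.084% of all loci at 1 h and 5.35% and 2.55% at 4 h. The 20 were mainly enzymes.

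The 7 measured genes of late anthocyanin synthesis and transport, here called late enzymes, had no call at 1 h, and 6 of 7 rose at 4 h. Late genes of the pathway are those the complex is known to activate. DFR (AT5G42800), which makes the leucoanthocyanidins, had a log2 level of 11.99 ± 0.15 in DEX and 8.62 ± 0.74 in mock at 4 h (SD, n = 3 each), a log2 difference of 3.37 (adjusted p = 3.67e-06), after -0.05 at 1 h. Without mock 4 h replicate 2 the 4 h difference of DFR was 2.99. The glycosyltransferase genes UGT75C1 (AT4G14090), UGT79B1 and UGT78D2 (AT5G17050) rose by 2.88, 2.78 and 2.51 (adjusted p = 2.09e-07, 9.88e-07 and 9.88e-07). BGLU10 (AT4G27830), a glucosyltransferase of anthocyanins, did not pass (0.52, adjusted p = 0.126), and its difference was 0.27 (adjusted p = 0.338) without mock 4 h replicate 2.

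Of the 9 early flavonoid and phenylpropanoid enzymes, which also serve flavonols and include the flavonol synthase, 8 rose at 4 h and 0 were called at 1 h. PAL1 (AT2G37040), the entry enzyme of phenylpropanoid synthesis, rose by 2.80 (adjusted p = 1.6e-08), F3'H (AT5G07990) by 2.93 (adjusted p = 7.29e-08) and F3H (AT3G51240) by 1.66 (adjusted p = 1.54e-05). CHI (AT3G55120), chalcone isomerase, did not pass (0.56, adjusted p = 0.125). Its difference depended on single mock arrays, with 0.84 (adjusted p = 0.00842) without mock 4 h replicate 1 and 0.29 (adjusted p = 0.334) without mock 4 h replicate 2. The median 4 h log2 difference was 2.51 for the late and 1.38 for the early enzymes, against 0.02 over all loci.

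As with PAP2, part of the enzymes' 4 h difference lay in mock leaves. Of the 16 enzymes 14 were called lower in mock 4 h than in mock 1 h leaves, against 5.64% of all loci, with a median log2 difference of -0.99. CHS (AT5G13930), chalcone synthase, had levels of 11.86 ± 0.16 in DEX 4 h and 11.87 ± 0.14 in DEX 1 h leaves, but 10.25 ± 0.53 in mock 4 h and 11.87 ± 0.08 in mock 1 h leaves. DFR by contrast was higher by 1.49 in DEX 4 h than in DEX 1 h leaves and differed by -1.93 between the mock times. The median over the 16 was 0.96 for DEX 4 h minus DEX 1 h. By list this median was 1.44 for the 7 late and 0.15 for the 9 early enzymes. The mock medians were -0.98 and -1. Most early enzymes thus differed at 4 h mainly through lower mock levels. PAL1 (1.51) and F3'H (1.67) were the exceptions, with higher levels in DEX 4 h than in DEX 1 h leaves. Without mock 4 h replicate 2, 13 of the 16 rose at 4 h and 13 were called lower in mock 4 h leaves.

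**Figure D5:**
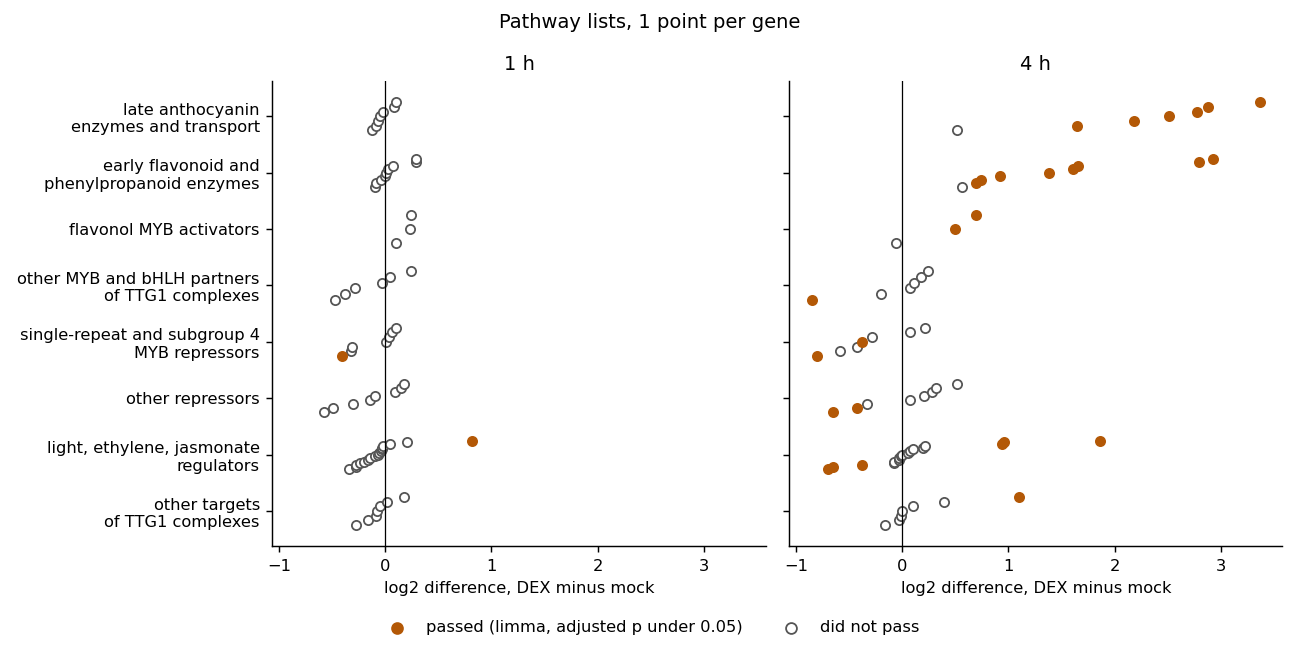
Log2 difference of DEX minus mock at 1 h and at 4 h for each measured gene of the 8 pathway lists (1 point per gene), filled where the gene passed limma's test at an adjusted p under 0.05. At 1 h the late and early enzymes lie between -0.12 (5MAT) and 0.29 (PAL1 and F3'H), and none passed. At 4 h their medians are 2.51 and 1.38, and the medians of the other lists are between -0.38 and 0.50.

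Of the flavonol MYB genes, MYB111 (AT5G49330) rose by 0.70 (adjusted p = 0.00161) and MYB11 (AT3G62610) by 0.50 (adjusted p = 0.0214). MYB12 (AT2G47460) did not pass (-0.06, adjusted p = 0.875), and its difference was 0.04 without mock 4 h replicate 2. The MYB11 call was lost without DEX 4 h replicate 2 or 3 or mock 4 h replicate 1 or 2 (adjusted p = 0.108, 0.0738, 0.0524 and 0.0586). Of 6 other MYB and bHLH partners of TTG1, 1 was called at 4 h, GL1 (AT3G27920), the MYB of trichome fate, which fell by 0.85 on the log2 scale (adjusted p = 0.00826). Among 7 further MYB repressors 2 fell at 4 h. MYB3 (AT1G22640), a repressor of phenylpropanoid genes, was the only list gene called lower at 1 h, by -0.41 (adjusted p = 0.0379). At 4 h it was lower by -0.80 (adjusted p = 2.2e-05). MYB3 was thus opposite in sign to MYBL2 at 4 h (1.84), but not at 1 h (-0.17). Its 1 h call was lost under 11 of 20 alternatives, among them the removal of any 1 of the 6 arrays of 1 h and of DEX 4 h replicate 2, with an adjusted p of up to 0.224 without mock 1 h replicate 3. TRY (AT5G53200), a small MYB repressor of trichome fate, was the other to fall at 4 h, at -0.38 (adjusted p = 0.045). Its call was lost under 16 of 20 alternatives, including the removal of any 1 array other than mock 1 h replicate 3 and mock 4 h replicate 3, with an adjusted p of up to 0.137 without DEX 4 h replicate 2.

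Of 8 other repressors of anthocyanin synthesis 2 fell at 4 h. On the log2 scale HAT1 (AT4G17460) fell by 0.65 (adjusted p = 0.043) and SPL9 (AT2G42200) by 0.42 (adjusted p = 0.0446). The HAT1 call was lost under 11 of 20 alternatives, including the removal of DEX 1 h replicate 2, any 1 of the DEX 4 h or mock 1 h arrays, or mock 4 h replicate 2, where the difference was -0.41 (adjusted p = 0.0992). The SPL9 call was lost under 12, including the removal of DEX 1 h replicate 1 or 3, any 1 DEX 4 h array, mock 1 h replicate 2 or 3, or mock 4 h replicate 2 or 3, with an adjusted p of up to 0.152 with array weights. On these lists 0 of the 7 and 0 of the 8 repressors were called higher at 4 h, where 5.35% of all loci were, so these counts are near the background.

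Among 17 measured genes of light, ethylene and jasmonate signalling, MYBD (AT1G70000) was the only list gene that rose at 1 h. MYBD is a MYB-like protein that acts with HY5 and is known to repress MYBL2. Its log2 level after 1 h was 8.83, 8.78 and 8.98 in DEX, against 8.17, 7.91 and 8.04 in mock, a difference of 0.82 (adjusted p = 0.00862). After 4 h it was 8.92, 8.85 and 8.90 in DEX, against 7.29, 6.66 and 7.15 in mock, a difference of 1.86 (adjusted p = 7.08e-07). The 1 h call was lost without DEX 1 h replicate 3 (adjusted p = 0.0558) and without mock 1 h replicate 2 (adjusted p = 0.0671). As for PAP1, all DEX arrays of MYBD lay above all mock arrays at both times. This was also so for other list genes, among them PAL1, MYB111 and MYB11. Unlike PAP1, MYBD hardly differed between the DEX groups, by 0.03 (SE 0.14) for 4 h minus 1 h. Its mock groups differed by -1.01 (SE 0.14).

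HY5 (AT5G11260) and HYH (AT3G17609), bZIP proteins of light signalling that activate PAP1, had 1 h differences of -0.14 and -0.16 and rose at 4 h by 0.96 (adjusted p = 8.42e-05) and 0.94 (adjusted p = 0.000253). In mock leaves 4 h minus 1 h was -0.90 for HY5 and -1.86 for HYH. In DEX leaves HY5 was at 7.88 ± 0.19 at 4 h and 7.67 ± 0.07 at 1 h, and HYH at 7.90 ± 0.20 and 8.66 ± 0.14 (SD, n = 3 each). PIF5 (AT3G59060), PIF4 (AT2G43010) and TCP15 (AT1G69690), growth regulators, fell at 4 h by 0.65, 0.38 and 0.70 on the log2 scale (adjusted p = 0.00213, 0.0415 and 0.0211), and the PIF4 call was lost under 11 of 20 alternatives, with an adjusted p of up to 0.15 without DEX 4 h replicate 2. The TCP15 call was lost under 4, including the removal of DEX 4 h replicate 2 or 3 or mock 4 h replicate 3 (adjusted p = 0.102, 0.0653 and 0.0503). Of 7 other targets of TTG1 complexes, TTG2 (AT2G37260), a WRKY factor, rose at 4 h by 1.10 (adjusted p = 0.000109).

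Markers of leaf layers and of other tissue were set beside the 4 h results. The epidermis list, the layer that often holds leaf pigment, had a mean log2 level of 11.48 to 11.61 in DEX 4 h and 11.81 to 11.98 in mock 4 h leaves, and 1 of its 4 genes fell, ATML1 (-0.50, adjusted p = 0.00418). The shoot meristem list was at 5.89 to 6.03 in DEX 4 h and 6.20 to 6.31 in mock 4 h leaves, with 1 of 6 that fell, KNAT1 (-1.33, adjusted p = 1.91e-05), and 2 of 6 under the lower quartile on all arrays. The root list (6.46 to 6.56 in DEX and 6.50 to 6.56 in mock) and the photosynthesis list had 0 calls. The part of these shifts in the regulators' values was not tested.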

How the data were processed

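RNA of leaf 3 was hybridised to 12 Affymetrix ATH1 arrays. Per the submitters' processing notes, the authors ran RMA, which subtracts background, puts arrays on a common scale and combines probes into sets, and the deposited table gives log2 levels. Its software, and how probe sets were defined, are not given in the sources used here. Of 21492 probe sets, 64 AFFX controls were set aside and 21428 loci were kept, with no filter on level. Of these, 21120 represent exactly 1 gene and 221 have the same values as another locus. The TAIR10.1 reference named 21231 loci. Arrays give no molecule counts, and 3 arrays per group limit the precision.

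A linear model with a mean for each group was fitted to the 12 arrays in limma 3.58.1 (R 4.3.3), with 8 residual and 5.85 prior degrees of freedom. Tests were two-sided, and p-values were adjusted by Benjamini and Hochberg's method across 21428 loci. A locus was called where the adjusted p was under 0.05. The fit was tested on simulated data. Standard errors are those of this fit, and lists are described by counts and medians. Contrasts were DEX minus mock at either time, their difference, and mock 4 h minus mock 1 h. Figures were drawn with matplotlib 3.10.9.

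The members and the gene lists were chosen with earlier results of these data known. All 7 members were named, with up to 3 genes of each list called at 4 h and up to 2 called at 1 h with the smallest p, and for PAP1, TT8 and MYBL2 the 4 loci with the highest correlation. DFR, CHS, CHI, BGLU10, MYB12, MYB114, PIF4, PIF5, TCP15, ATML1 and KNAT1 were named after their values were seen. Alternatives were the replicate number as a block, only the arrays of a comparison, a mean log2 of at least 5, quantile normalization again, centring, a trend with robust eBayes, array weights and each array left out. Centring together with leaving out mock 4 h replicate 2 was added after seeing the data.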

Additional observations from a re-analysis of the deposited data

Results flagged for a closer look

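The DEX response of 13 of the named pathway genes and of the marker KNAT1 differed between the times by limma's test of the difference itself (DEX minus mock at 4 h less DEX minus mock at 1 h, log2 scale, adjusted over all loci). Of the 64 measured list genes 16 were called, against 1.28% of all loci in either direction. Genes were named for a small p at 4 h or 1 h, or after their values were seen, so nothing is read from the counts. Among the late enzymes the difference was 3.42 (adjusted p = 0.000655) for DFR, 2.85 (adjusted p = 0.000257) for UGT79B1, 2.78 (adjusted p = 0.00013) for UGT75C1, 2.43 (adjusted p = 0.000363) for UGT78D2 and 1.77 (adjusted p = 0.00086) for 5MAT. Among the early enzymes it was 2.64 (adjusted p = 7.41e-05) for F3'H, 2.51 (adjusted p = 2.09e-05) for PAL1, 1.75 (adjusted p = 0.00162) for F3H and 1.61 (adjusted p = 0.00804) for CHS. Among the other lists it was 1.19 (adjusted p = 0.00686) for TTG2, 1.10 (adjusted p = 0.00351) for HY5, 1.10 (adjusted p = 0.00749) for HYH and 1.04 (adjusted p = 0.0155) for MYBD. For KNAT1 it was -1.34 (adjusted p = 0.00297). The MYBD call was lost without DEX 1 h replicate 2 (adjusted p = 0.0532) and without mock 1 h replicate 1 (adjusted p = 0.0579). For some of these genes the difference lay mostly in lower mock levels. DEX 4 h minus DEX 1 h was 0 for CHS, 0.03 for MYBD, 0.21 for HY5, 0.33 for F3H and -0.76 for HYH. In mock leaves the same values were -1.62, -1.01, -0.90, -1.42 and -1.86. The other list genes here were higher in DEX 4 h than in DEX 1 h leaves, from 0.89 for TTG2 to 2.05 for UGT79B1.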

How the results depend on the processing

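No called gene or member named at 1 h or 4 h changed direction in any of the 20 alternatives, apart from differences near 0 of MYB113 at both times and of TT8 and TTG1 at 1 h. The 1 h comparison had 153 called loci, 251 with only its arrays, 378 with array weights and 90 to 263 with single arrays left out (263 without mock 4 h replicate 2, also with centring added after seeing the data). The 4 h comparison had 1693, 994 with only its arrays, 2079 after quantile normalization again, 2169 after centring and 1244 to 2022 with single arrays left out. The difference of the responses had 274, 465 with array weights and 170 to 412 with single arrays left out. Mock 4 h against mock 1 h had 1990, 1086 with only its arrays, 3120 with array weights, 945 to 2439 with single arrays left out and 3219 with centring and without mock 4 h replicate 2. With single arrays left out, the lowest counts came without mock 1 h replicate 2 (90), DEX 4 h replicate 2 (1244), mock 1 h replicate 1 (170) and mock 1 h replicate 3 (945). Among these removals of single arrays the highest count of each comparison came without mock 4 h replicate 2. Of the list genes 2 were called at 1 h, 1 with the replicate block, 1 with a trend and robust eBayes, 5 with array weights, 4 with centring and without mock 4 h replicate 2 and 0 to 4 with single arrays left out. At 4 h 28 were called and 22 to 26 with single arrays left out. The share of calls that were higher was 75.5% for the difference of the responses, 57.4% after quantile normalization again and 57.7% after centring, and 39.2%, 49.8% and 40.6% for mock 4 h against mock 1 h. Single arrays moved the mock share from 31.3% without mock 4 h replicate 3 to 60% without mock 4 h replicate 2. The replicate block gave 153, 1697, 267 and 1907 loci in the comparisons, in the order above; deviations of arrays with the same number correlated by -0.01 to 0.19, and 3 of 6 DEX arrays correlated best with their own number, so the numbers were not taken as pairs.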
